A study of Homo sapiens with 18 samples.

Results

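The 3 libraries of NCI-H1693 cells kept for 48 h in DMSO were compared with the 3 libraries of cells kept for 6 h in DMSO, to ask which transcripts of the untreated line changed with time in culture. The members were taken from the treatment and time in the labels, with no measured value, and make up 6 of the 18 libraries of the series. NCI-H1693 is an established human line of non-small cell lung cancer. The labels call it SMARCA4-deficient, so that all groups share this loss. DMSO is the solvent of PRT3789, a degrader selective for SMARCA2, and the other groups are DMSO at 72 h and 50 nM PRT3789 at 6, 48 and 72 h, with 3 libraries each. Cells grew in RPMI-1640 with fetal bovine serum and antibiotics, and were seeded to be short of confluence when the treatment began. The labels record neither a change of medium nor a cell count at harvest, so hours in DMSO, hours since seeding and cell density cannot be told apart. Separate cultures for the 3 replicates of a group are not stated either, and p-values then measure only the spread between these libraries, which may be technical.

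Cells that leave or slow their division cycle turn down genes needed to copy DNA and to divide, many of which are controlled by E2F factors and by repressor complexes that bind a promoter element called CHR. Serum growth factors act through receptor kinases and the MAP kinase ERK to switch on immediate early genes such as FOS and EGR1, and ERK in turn induces its own inhibitors. Sterol-regulated SREBP factors switch on the genes of cholesterol and fatty acid synthesis, and YAP with TEAD factors drives targets such as CCN1 and CCN2 in response to adhesion and cell shape.

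Genes of DNA replication (37 of 39 tested) and of mitosis (38 of 44) were mostly called lower at 48 h than at 6 h. Calls of a rise were made for 18 of 25 immediate early genes, 15 of 26 feedback inhibitors and ligands of the MAP kinase pathway, 12 of 26 YAP/TEAD targets, 17 of 28 cholesterol genes and 14 of 29 fatty acid genes. Among 15200 tested genes, of 43236 symbols in the table, 1759 (11.6%) were called higher at 48 h and 1625 (10.7%) lower. Calls rest on edgeR's quasi-likelihood test, with a threshold of 0.05 on the p-value after Benjamini-Hochberg adjustment. A change of at least 2-fold was reached by 391 of the higher and 203 of the lower genes. With the replicate number as a block the calls were 3072 higher and 3052 lower, and they held 3377 of the 3384 calls made without it. Scaling by total counts alone shifted the median log2 fold change (log2FC) of all genes from 0.0046 to 0.0986, and 68.6% of the calls were then higher at 48 h, against 52.0%. The number of calls depended on single libraries. It was 3246 higher and 3256 lower without 6 h replicate 1, 693 and 612 without 6 h replicate 2, and 1067 and 970 without 6 h replicate 3. Without 48 h replicate 1, 2 or 3 it was 796 and 640, 616 and 544, and 1122 and 989.

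Levels are given as CPM, counts scaled to the size of each library, which are not divided by transcript length and are compared here only within a gene. The libraries held 23402300 to 31094797 counts in total. The 6 epithelial markers summed to 8677 to 10026 CPM at 6 h and 10238 to 11026 CPM at 48 h. Markers of blood cells summed to 15.7 to 16.9 CPM and then 8.53 to 9.80 CPM, most of it CD68, with HBA1 and HBB at 0 and 6 of 8 markers under 1 CPM. Endothelial markers stayed under 3 CPM in sum and neuronal ones under 2 CPM. The fibroblast list reached 83.9 to 129 CPM mostly through LUM, while its other 4 members were under 2 CPM in every library. Of the 7 such markers that were tested, the endothelial CDH5 (0.936 to 2.30 CPM) and the fibroblast PDGFRB (0.186 to 0.722 CPM) were called higher and CD68 (14.7 to 7.47 CPM) lower; rises were 0 without 48 h replicate 2 and 1 without 48 h replicate 3, and falls 2 with the block or without 6 h replicate 1. Fewer cells of a type and less RNA per cell cannot be told apart in such bulk samples. SMARCA4 itself had 6.39, 6.83 and 11.9 CPM at 6 h and 9.28, 10.9 and 9.26 CPM at 48 h and was not called (adjusted p 0.448, and 0.0385 without 6 h replicate 3), and SMARCA2 had 43.6, 38.9 and 35.7 and 44.3, 40.2 and 41.99 CPM (adjusted p 0.477).

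Promoter stretches are shown for members of lists with many calls in 1 direction, with the elements that are known to control such genes. They are RefSeq sequences on GRCh38.p14, read 5′ to 3′ on the gene's own strand, all within 250 bases before the transcript start. Capitals mark the motif that was searched on both strands. Each set shows called members with a match, taken in order of p, with the genes of 1 chromosome left out. E2F1, PCNA and MCM3 stand for the S phase list, with the E2F motif TTTCCCGC or TTTGGCGC.
E2F1 (chr20:33686386-33686450, minus strand): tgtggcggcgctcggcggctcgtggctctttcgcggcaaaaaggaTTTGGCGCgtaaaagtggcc
PCNA (chr20:5126629-5126726, minus strand): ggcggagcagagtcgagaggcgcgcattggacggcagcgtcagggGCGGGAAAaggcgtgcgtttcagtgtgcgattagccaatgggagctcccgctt
MCM3 (chr6:52284864-52284961, minus strand): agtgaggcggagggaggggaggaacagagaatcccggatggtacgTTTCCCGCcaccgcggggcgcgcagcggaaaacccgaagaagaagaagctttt
HJURP, CDCA8 and BUB1B stand for the G2/M list, with the CHR motif TTTGAA.
HJURP (chr2:233854596-233854691, minus strand): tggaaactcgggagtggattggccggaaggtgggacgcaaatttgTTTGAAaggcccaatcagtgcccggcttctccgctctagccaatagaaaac
CDCA8 (chr1:37692448-37692515, plus strand): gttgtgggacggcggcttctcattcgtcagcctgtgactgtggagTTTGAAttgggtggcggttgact
BUB1B (chr15:40161001-40161068, plus strand): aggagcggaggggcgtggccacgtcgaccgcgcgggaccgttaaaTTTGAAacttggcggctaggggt
SREBF2 carries the sterol response motif TCACNCCAC, the single match in the cholesterol list, and EGR1 carries CArG boxes, the element that serum response factor binds.
SREBF2 (chr22:41832927-41833025, plus strand): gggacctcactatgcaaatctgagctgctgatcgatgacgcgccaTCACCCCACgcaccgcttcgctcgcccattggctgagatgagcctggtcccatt
EGR1 (chr5:138465351-138465450, plus strand): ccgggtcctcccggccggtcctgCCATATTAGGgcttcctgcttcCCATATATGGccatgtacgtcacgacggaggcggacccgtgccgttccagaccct

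The E2F motif was found in 13 of 34 S phase members with a RefSeq promoter (38.2%), against 536 of all 27305 promoters (1.96%) and 3.05% of those of tested genes. CHR was found in 20 of 37 G2/M members (54.1%), against 13.6% of all promoters and 8.40% of those of tested genes. Among members called lower that have a promoter, 11 of 32 held the E2F motif and 18 of 32 held CHR. Both lists hold many genes known to be controlled by these elements, so the shares describe the lists and not the change with time. A sterol response motif stood in 1 of 21 cholesterol members (4.76%, against 0.875% of all promoters), and TEAD's GGAATG in 5 of 18 YAP/TEAD targets (27.8%, against 11.9%). Of 19 immediate early genes with a promoter, none held the AP-1 motif TGANTCA, which 6.60% of all promoters hold. EGR1 alone held CArG boxes, with 2 places in the window, each counted once although the element reads alike on both strands, while 1.14% of all promoters have one; this motif was chosen after the values were seen. A match is a run of letters in this window and not a measured binding site.

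**Figure D1:**
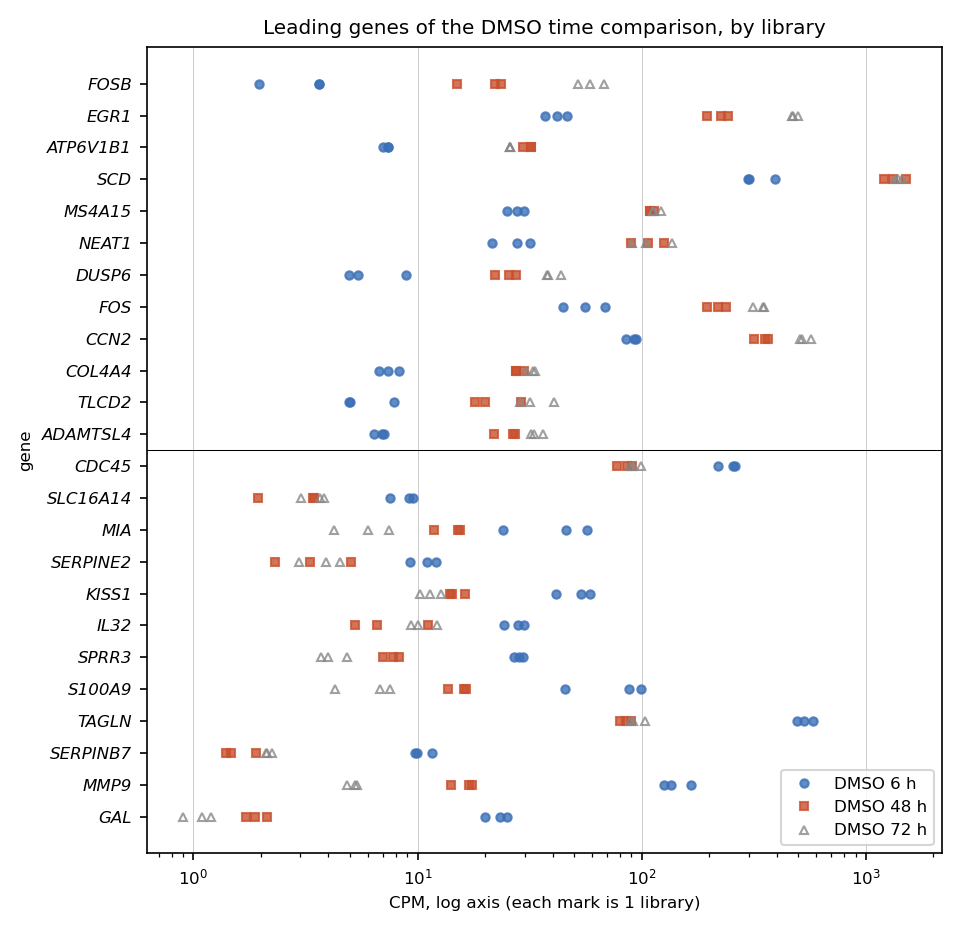
CPM of the 12 genes with the largest called rise (upper block) and the 12 with the largest called fall (lower block) on a log axis, 1 mark per DMSO library at 6, 48 and 72 h. The 6 h and 48 h marks lie apart for each gene, which the choice of genes required; EGR1 goes from 37.1 to 46.5 CPM at 6 h to 196 to 243 CPM at 48 h.

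The genes with the largest rises included 3 immediate early genes, an ERK phosphatase, a YAP/TEAD target and a lipid desaturase. They are the 12 called genes with the largest rise among those with a mean of at least 5 CPM and no overlap between the groups, so their separation was imposed. FOSB (chromosome 19, 45467996 to 45475179), a subunit of the transcription factor AP-1, had 3.65, 1.97 and 3.64 CPM at 6 h and 22.2, 23.6 and 14.99 CPM at 48 h (log2FC 2.74 ± 0.26, standard error; adjusted p 0.000590). EGR1 (chromosome 5, 138465479 to 138469303), a zinc finger factor induced by growth signals, went from 46.5, 37.1 and 41.99 to 227, 243 and 196 CPM (2.42 ± 0.13, adjusted p 4.56e-05). FOS, the partner of JUN in AP-1, went from 44.6, 55.8 and 68.6 to 195, 238 and 219.9 CPM (1.97 ± 0.16, adjusted p 0.000306). The lowest 48 h library of each was thus well above the highest 6 h library. DUSP6, the phosphatase that inactivates ERK, had 4.94, 5.40 and 8.89 CPM and then 22.2, 25.7 and 27.5 CPM (1.99 ± 0.21, adjusted p 0.000843). CCN2 (chromosome 6, 131948176 to 131951372), a secreted matrix protein, had 93.8, 85.3 and 92.8 and 317, 367 and 353 CPM (1.95 ± 0.10, adjusted p 4.56e-05). SCD (chromosome 10, 100347233 to 100364826), which makes monounsaturated from saturated fatty acids, had 391, 298 and 302 and 1507, 1205 and 1326 CPM (2.04 ± 0.15, adjusted p 0.000272).

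The other 6 had no single role. ATP6V1B1 (chromosome 2, 70935900 to 70965431), a subunit of the vacuolar proton pump, rose from 7.38, 7.41 and 7.05 to 32.1, 32.2 and 29.6 CPM (2.12 ± 0.11, adjusted p 3.73e-05). MS4A15, a membrane protein of the MS4A family, rose from 25.1, 29.7 and 27.9 to 109, 113 and 108 CPM (2.02 ± 0.10, adjusted p 3.73e-05). In both, the replicates of a group lay close together and the groups far apart, which the choice of genes favoured. NEAT1, the long non-coding RNA around which paraspeckles form, rose from 21.5, 27.7 and 31.8 to 107, 126 and 89.96 CPM (adjusted p 0.000372). COL4A4, a chain of basement membrane collagen, rose from 8.25, 6.74 and 7.38 to 27.6, 27.4 and 29.97 CPM (adjusted p 0.000106). TLCD2, a membrane protein, was 3.78-fold higher on the fitted scale, and ADAMTSL4, a secreted relative of the ADAMTS proteases, 3.75-fold.

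Among the 12 falls named by the same rule, those of GAL, MMP9, SERPINB7 and TAGLN were the largest. GAL (chromosome 11, 68684544 to 68691175), which encodes the neuropeptide galanin, fell from 19.9, 23.3 and 24.97 CPM to 1.71, 1.88 and 2.13 CPM (-3.55 ± 0.15, adjusted p 2.02e-05). MMP9 (chromosome 20, 46008908 to 46016561), a gelatinase, fell from 165, 135 and 126 to 17.4, 16.9 and 14.1 CPM (-3.12 ± 0.15, adjusted p 3.13e-05). TAGLN (chromosome 11, 117199294 to 117207465), the actin-binding protein transgelin, fell from 494, 529 and 582 to 89.9, 84.8 and 80.1 CPM (-2.64 ± 0.11, adjusted p 2.02e-05). These changes were 11.7-, 8.68- and 6.23-fold, and the spread within each group was well under 2-fold. The choice of genes by size of change and lack of overlap favoured this. SERPINB7, an intracellular serpin, fell from 9.75, 9.92 and 11.5 to 1.90, 1.40 and 1.47 CPM (adjusted p 0.000108). S100A9, a calcium-binding protein of myeloid cells and stressed epithelium, had 45.7, 87.5 and 99.02 and 13.7, 16.4 and 16.1 CPM (adjusted p 0.000983). SPRR3, a precursor of the cornified envelope, had 28.4, 29.4 and 26.8 and 7.75, 7.02 and 8.26 CPM (adjusted p 0.000104). S100A9 varied about 2-fold among the 6 h libraries, with its lowest value in replicate 1, and SPRR3 hardly varied.

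Kisspeptin's gene KISS1 fell from 41.4, 53.6 and 58.5 to 13.9, 16.3 and 14.2 CPM (-1.77 ± 0.14, adjusted p 0.000306). IL32, a cytokine, fell from 24.3, 28.1 and 29.9 to 11.1, 6.58 and 5.25 CPM (-1.83 ± 0.25, adjusted p 0.00198); its highest 48 h value was in replicate 1, a library that also held transcripts nearly lacking in the others. SERPINE2, an inhibitor of thrombin and plasminogen activators, fell from 12.03, 10.97 and 9.22 to 5.07, 3.32 and 2.31 CPM (adjusted p 0.00438). The remaining falls were in the secreted protein gene MIA (-1.56), the transporter SLC16A14 (-1.55) and the replication gene CDC45 (-1.52), all on the log2 scale. Each of the 24 leading genes passed the test in each of the 18 alternative fits, the 6 with a library left out included. Those fits reuse the libraries on which the genes were picked, so this gives no independent support. Of all 3384 calls, 1157 were kept in the same direction without 48 h replicate 2.

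**Figure D2:**
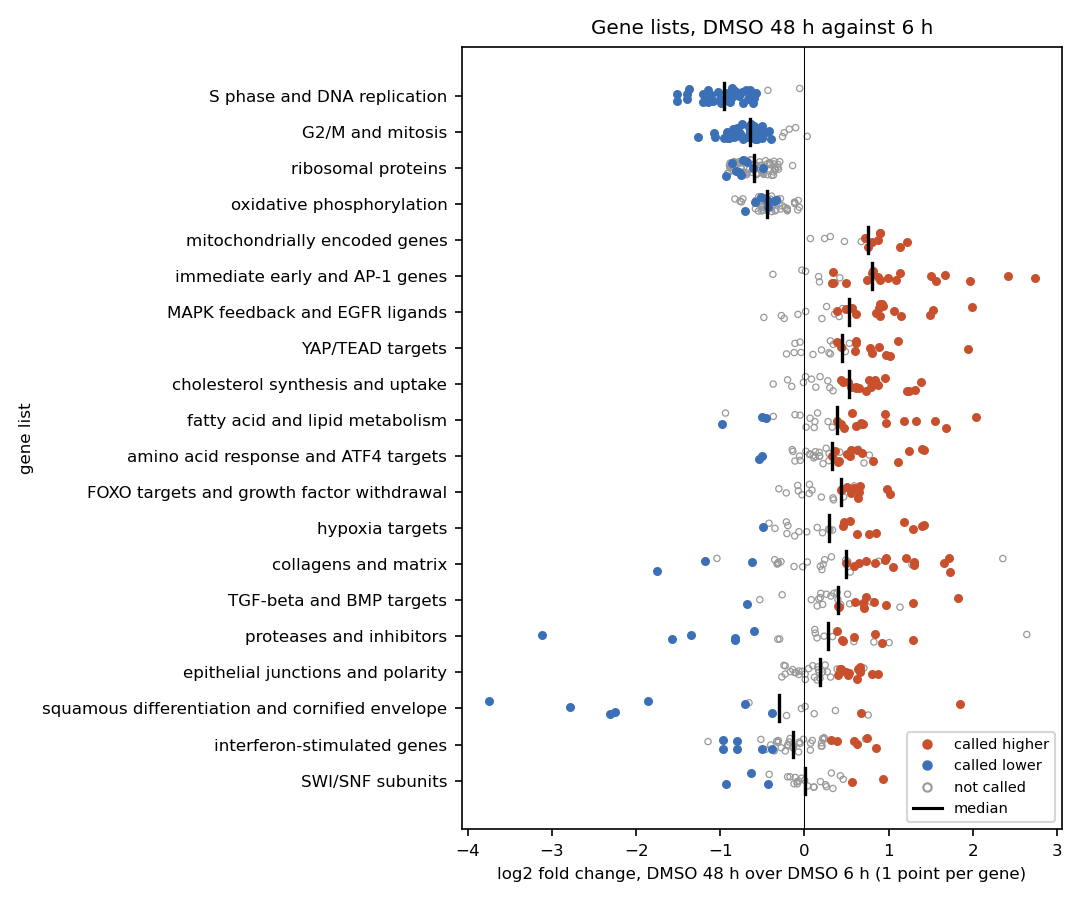
Log2 fold change of DMSO 48 h over 6 h for the tested members of 20 lists, 1 point per gene, filled where the gene was called and with the list's median as a bar. The S phase and G2/M lists have no called rise (37 of 39 and 38 of 44 called lower), the immediate early list has no called fall (18 of 25 called higher), and the ribosomal protein list lies wholly below 0 with few calls.

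Genes of DNA replication fell together. In the S phase list 37 of 39 members were called lower and none higher, with a median log2FC of -0.96, against 0.0046 over all tested genes. E2F1, the transcription factor of the G1 to S transition, fell from 80.01, 77.4 and 75.1 to 32.4, 35.9 and 32.8 CPM (-1.18 ± 0.10, adjusted p 0.000303). CDC6, which loads the replicative helicase, fell from 83.7, 85.8 and 93.5 to 37.1, 36.6 and 41.2 CPM (-1.18 ± 0.10, adjusted p 0.000339), and the helicase subunit MCM2 from 179, 148 and 142 to 89.7, 90.5 and 89.2 CPM (-0.78 ± 0.11, adjusted p 0.00254). CDC45, which activates that helicase, had 219, 255 and 260.3 and 77.3, 85.7 and 90.3 CPM. PCNA, the clamp of the DNA polymerases, fell from 302, 329 and 376 to 117, 123 and 138 CPM (-1.40 ± 0.12, adjusted p 0.000339). FEN1, the nuclease that trims Okazaki fragments, fell from 200.4, 205 and 203 to 90.8, 98.1 and 95.6 CPM (-1.08 ± 0.09, adjusted p 0.000306). The 6 h and 48 h libraries overlap for none of these 6 genes. For CDC45 the choice of leading genes required this, and E2F1, CDC6 and FEN1 were chosen for their small p. The share of all tested genes without overlap was not counted. Cyclin E1 (CCNE1) fell less, from 10.3, 14.4 and 12.3 to 5.63, 7.28 and 6.91 CPM (-0.88 ± 0.16, adjusted p 0.00685). MCM3, given here for its promoter, had 214 ± 9.77 and 117 ± 5.12 CPM (SD, n = 3; log2FC -0.86 ± 0.09). Between 34 and 37 members were called lower with any 1 library left out.

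Mitotic genes fell too. The G2/M list had 38 of 44 members called lower and none higher, and a median log2FC of -0.65. HJURP, the chaperone that brings CENP-A to centromeres, fell from 99.8, 107 and 107 to 51.99, 52.5 and 54.3 CPM (-0.96 ± 0.09, adjusted p 0.000502). NDC80, of the outer kinetochore, fell from 73.3, 81.9 and 87.5 to 37.5, 36.3 and 41.3 CPM (-1.06 ± 0.11, adjusted p 0.000673), and the checkpoint kinase TTK from 81.4, 75.9 and 74.2 to 40.2, 36.9 and 44.6 CPM (-0.91 ± 0.11, adjusted p 0.00107). CDCA8, a subunit of the chromosomal passenger complex, fell from 112, 124 and 117 to 66.04, 67.05 and 70.3 CPM (-0.78 ± 0.09, adjusted p 0.00108). BUB1B, whose promoter is shown above, had 77.2 ± 2.58 and 45.4 ± 1.99 CPM (SD, n = 3; log2FC -0.75 ± 0.09). The mitotic kinase PLK1 went from 145, 134 and 129 to 94.99, 96.9 and 92.1 CPM (-0.51 ± 0.09, adjusted p 0.00746). Cyclin B1 (CCNB1) went from 315, 372 and 383 to 224, 239 and 268 CPM (-0.53 ± 0.12, adjusted p 0.0144), a call lost without 6 h replicate 2, 48 h replicate 1 or 48 h replicate 2 (adjusted p 0.0714, 0.0685 and 0.0707). Without 6 h replicate 1 a single member was called higher. MKI67, the proliferation marker, had 178, 123 and 105 CPM at 6 h and 132, 134 and 107 CPM at 48 h. The groups overlap and MKI67 was not called (adjusted p 0.721). Its log2FC ran from -0.342 to 0.147 over the 18 alternative fits, with a call in 1 of them.

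Inhibitors of the cyclin-dependent kinases and p53 targets were called at about the share of all genes. Of the 30 members of the list of CDK inhibitors and p53 targets, 4 were called higher and 4 lower, 13.3% each way against 11.6% and 10.7% over all tested genes (7 and 8 with the replicate block). CDKN2B, which inhibits CDK4 and CDK6, rose from 73.9, 68.5 and 69.9 to 113, 113 and 117 CPM (0.71 ± 0.09, adjusted p 0.00146), while its relative CDKN2C fell from 79.5, 86.6 and 87.5 to 45.3, 50.3 and 52.1 CPM (-0.76 ± 0.10, adjusted p 0.00160). CDKN1A, the p53 target p21, went from 60.2, 61.5 and 64.9 to 45.7, 47.3 and 45.99 CPM (-0.41 ± 0.09, adjusted p 0.0143, and 0.0590 to 0.0668 without 6 h replicate 2, 48 h replicate 1 or 48 h replicate 2). CDKN1B had 89.2 and 78.3 CPM on average and was not called (adjusted p 0.202). DDB2, a p53 target of DNA repair, fell (-0.90 ± 0.12, adjusted p 0.00196), and PLK2 rose (0.60 ± 0.09, adjusted p 0.00304). Counts without 1 library were 2 without 6 h replicate 2, 48 h replicate 2 or 48 h replicate 3 for rises and 2 without 6 h replicate 2, 48 h replicate 1 or 48 h replicate 2 and 8 without 6 h replicate 1 for falls. Of 21 histone genes 2 were called higher and 5 lower (4 and 7 with the block). The rises were H2BC21, from 8.25, 7.49 and 8.61 to 14.3, 14.4 and 14.3 CPM, and H2BC5 (0.69 on the log2 scale). Falls were 11 without 6 h replicate 1, 1 without 6 h replicate 3 or 48 h replicate 3, and 0 without any of the other 3 libraries, so that H2AZ1, a replacement histone (-0.53, adjusted p 0.0183), kept its call only without 6 h replicate 1 or 48 h replicate 3 among those fits. Libraries were enriched for polyadenylated RNA, so histone transcripts without a poly(A) tail were measured only in part.

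Immediate early genes rose. Of 25 tested members 18 were called higher and none lower, with a median log2FC of 0.80. Beside FOS, FOSB and EGR1, the AP-1 subunit JUN rose from 40.7, 39.5 and 42.04 to 123, 147 and 114 CPM (1.67 ± 0.12, adjusted p 0.000207). MYC, a driver of growth and ribosome synthesis, rose from 21.7, 20.1 and 21.8 to 61.9, 66.2 and 57.9 CPM (1.56 ± 0.10, adjusted p 0.000142). In both, which were among the called members with the smallest p, the lowest 48 h library was over 2-fold above the highest 6 h library. NR4A1, a nuclear receptor of the same class, had 3.03, 4.19 and 3.59 and 5.52, 4.41 and 3.86 CPM and was not called (adjusted p 0.200). The count was between 12 and 18 with 1 library left out, and the block added 1 fall. DUSP1, the phosphatase that inactivates several MAP kinases, rose from 113, 124 and 147 to 228, 283 and 286 CPM (1.07 ± 0.13, adjusted p 0.00145).

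The list of feedback inhibitors of the ERK pathway and ligands of the EGF receptor was called higher in 15 of 26 tested members and lower in none (median log2FC 0.53). SPRY1, an inhibitor of receptor kinase signalling, rose from 8.63, 8.12 and 7.85 to 26.4, 22.2 and 21.5 CPM (1.53 ± 0.13, adjusted p 0.000306). ERRFI1, which binds and inhibits the EGF receptor, rose from 93.04, 100.2 and 93.9 to 172, 179 and 188 CPM (0.93 ± 0.09, adjusted p 0.000662), and PHLDA1 from 8.30, 7.41 and 9.27 to 20.3, 17.2 and 17.3 CPM (1.15 ± 0.13, adjusted p 0.00104). The groups do not overlap in any of these 3, which were chosen for their small p. EREG, a ligand of the EGF receptor, was at most 0.0837 CPM at 6 h and 0.255 CPM at 48 h and was not tested. The count of the list was 8 without 6 h replicate 2 and 9 without 48 h replicate 1 or 48 h replicate 2, and 1 fall was called with the block or without 6 h replicate 1.

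YAP/TEAD targets were called higher in 12 of 26 tested members and lower in none (median log2FC 0.45). CCN1, a matrix protein like CCN2, rose from 618, 587 and 625 to 1328, 1347 and 1229 CPM (1.11 ± 0.11, adjusted p 0.000650). AMOTL2, an angiomotin that restrains YAP, rose from 162, 140.4 and 124 to 266, 268 and 249 CPM (0.89 ± 0.12, adjusted p 0.00192), and F3, tissue factor, from 73.3, 74.4 and 80.3 to 134, 124 and 136 CPM (0.81 ± 0.09, adjusted p 0.00107). ANKRD1, a nuclear ankyrin repeat protein, had 62.6, 77.8 and 83.5 and 111, 124 and 144 CPM (0.77 ± 0.14, adjusted p 0.00642). The count was 6 without 48 h replicate 2 and 7 without 6 h replicate 2 or 48 h replicate 1. Cytoskeletal targets of serum response factor did not move one way. Called higher were 3 of 22 (13.6%) and lower 5 (22.7%), or 6 and 5 with the block. The shares over all tested genes were 11.6% and 10.7%. TAGLN and MYL9, a myosin light chain (229.5, 211 and 202 to 129, 114 and 101 CPM, -0.89 ± 0.12, adjusted p 0.00192), fell. Troponin T2 (TNNT2) rose from 4.77, 3.77 and 5.15 to 12.5, 12.5 and 11.8 CPM (1.44 ± 0.14, adjusted p 0.000673), and vinculin (VCL) rose by 0.66 ± 0.12 (adjusted p 0.00658). ACTB was not called (adjusted p 0.938). Rises in this list numbered 9 without 6 h replicate 1, and falls 2 without 48 h replicate 1 or 48 h replicate 2 and 3 without 6 h replicate 2 or 48 h replicate 3.

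Most tested genes of cholesterol synthesis and uptake rose. The list had 17 of 28 members called higher and none lower, with a median log2FC of 0.53. SQLE, the epoxidase that follows squalene, rose from 81.3, 76.8 and 78.5 to 121, 117 and 128 CPM (0.65 ± 0.09, adjusted p 0.00233). LSS, which closes the sterol rings, rose from 98.6, 90.3 and 85.1 to 225, 236 and 213 CPM (1.32 ± 0.10, adjusted p 0.000289). DHCR7, of the last step to cholesterol, rose from 164, 143 and 146 to 393, 349 and 314 CPM (1.24 ± 0.12, adjusted p 0.000639), as did the sterol reductase TM7SF2 (1.38 ± 0.11, adjusted p 0.000306). SREBF2, the factor of these genes and the one with the sterol motif shown above, had 88.7 ± 12.5 and 160.3 ± 8.70 CPM (SD, n = 3; log2FC 0.87 ± 0.12, adjusted p 0.00229). The count of rises was 11 without 6 h replicate 2.

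Fatty acid genes followed, with 14 of 29 called higher (48.3%, against 11.6% of all tested genes) and 3 lower (10.3%, against 10.7%). The median log2FC was 0.38. FASN, fatty acid synthase, rose from 329, 195 and 192 to 911, 758 and 603 CPM (1.68 ± 0.24, adjusted p 0.00245). ACACA, which makes its malonyl-CoA substrate, rose from 83.2, 58.2 and 51.7 to 140.2, 118 and 113 CPM (0.96 ± 0.18, adjusted p 0.00812). In both, replicate 1 was the highest library at each time. The desaturases FADS1 and FADS2 rose from 288, 260.1 and 243 to 697, 610.4 and 649 CPM and from 412, 371 and 348 to 1157, 1084 and 1037 CPM (adjusted p 0.000415 and 0.000272). ACSS2, which activates acetate, rose from 33.8, 29.4 and 32.4 to 62.9, 60.2 and 61.7 CPM (0.97 ± 0.10, adjusted p 0.000760). Rises numbered 9 without 6 h replicate 2 or 48 h replicate 2, and falls 1 without 6 h replicate 2, 48 h replicate 1 or 48 h replicate 2.

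Genes that respond to low oxygen, to amino acid supply and to growth factor withdrawal were partly higher. The shares called over all tested genes were 11.6% higher and 10.7% lower. Hypoxia targets had 10 of 24 called higher and 1 lower (median log2FC 0.29), and targets of ATF4, the factor of the amino acid response, 14 of 43 higher (25 with the block) and 2 lower (median 0.33). STC2, a secreted glycoprotein in both lists, rose from 24.7, 25.2 and 22.2 to 59.3, 63.9 and 64.4 CPM (1.40 ± 0.10, adjusted p 0.000207). DDIT4, an inhibitor of mTORC1 in both lists, rose from 11.7, 14.8 and 14.99 to 31.1, 38.7 and 39.6 CPM (1.42 ± 0.14, adjusted p 0.000673). ANGPTL4, an inhibitor of lipoprotein lipase, rose from 3.73, 3.56 and 4.26 to 8.94, 8.78 and 8.19 CPM (1.18 ± 0.13, adjusted p 0.00102). VEGFA, the vascular growth factor, had 31.4, 30.7 and 30.03 and 41.8, 43.9 and 46.6 CPM (0.54 ± 0.09, adjusted p 0.00620), and its call was lost with the length trend of each library removed (adjusted p 0.101). CA9, the hypoxia-induced carbonic anhydrase, was at 0 in 5 of the 6 libraries and 0.0373 CPM in the other, and was not tested. ASNS, asparagine synthetase, had 95.2, 89.5 and 90.6 and 98.6, 115 and 140.0 CPM and was not called (adjusted p 0.0690, 0.0152 with the block and 0.0177 without 6 h replicate 1), nor was DDIT3, the stress factor CHOP (adjusted p 0.303, and 0.0198 with the block). Rises of the ATF4 list numbered 7 without 48 h replicate 2 and 9 without 6 h replicate 2, 6 h replicate 3, 48 h replicate 1 or 48 h replicate 3, and its falls 0 without 6 h replicate 2 or 48 h replicate 2 and 1 without 48 h replicate 1. The fall of the hypoxia list was 3 genes without 6 h replicate 1 and none without any 1 of the other 5 libraries.

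FOXO targets, which rise when growth factor signalling drops, were called higher in 10 of 24 and lower in none (median log2FC 0.44). CITED2, a transcriptional cofactor, rose from 146, 159 and 166 to 301, 333 and 309 CPM (1.02 ± 0.10, adjusted p 0.000650), YPEL2 by 0.98 ± 0.13 (adjusted p 0.00184), PINK1, the kinase of mitochondrial quality control, by 0.56 ± 0.09 (adjusted p 0.00509), and MXD4, an antagonist of MYC, by 0.64 ± 0.11 (adjusted p 0.00596). IRS2, which passes on insulin signals, was not called (adjusted p 0.280, 0.0143 with the block and 0.000265 without 6 h replicate 1). The FOXO count was 4 without 48 h replicate 2, 5 without 48 h replicate 3 and 6 without 6 h replicate 2, with 1 fall with the block or without 6 h replicate 1. Over all tested genes 11.6% were called higher and 10.7% lower. Of 23 glycolysis genes 4 (17.4%) were called higher and 1 (4.35%) lower (8 and 4 with the block). These 4 are transporters of glucose or lactate and a hexokinase. The glucose transporter SLC2A1 rose from 172, 130.3 and 128 to 282, 262 and 237 CPM (0.88 ± 0.14, adjusted p 0.00409), and SLC2A3 from 249.7, 214 and 219 to 459.7, 436 and 437 CPM (0.98 ± 0.11, adjusted p 0.000898). The lactate exporter SLC16A3 rose by 0.79 ± 0.11 (adjusted p 0.00239) and hexokinase 2 (HK2) by 0.85 ± 0.18 (adjusted p 0.0120, and 0.0561 without 6 h replicate 2). LDHA had 1767, 1591 and 1667 and 1316, 1222 and 1355 CPM (adjusted p 0.0548, 0.0144 with the block and 0.0284 without 6 h replicate 1). Glycolysis rises numbered 8 without 6 h replicate 1, and falls 0 without 6 h replicate 2, 48 h replicate 1 or 48 h replicate 2 and 4 without 6 h replicate 1.

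Genes sensed through MondoA, a glucose-responsive factor, were called higher in 5 of 11 (8 with the block), among them the arrestin ARRDC4 (0.63 ± 0.10, adjusted p 0.00363). TXNIP, the best known target, had 513, 503 and 487 and 587, 696 and 719 CPM (0.43 ± 0.11, adjusted p 0.0288, and 0.0800 to 0.132 without 6 h replicate 2 or 3 or 48 h replicate 2 or 3). The count was 2 without 6 h replicate 2, 6 h replicate 3, 48 h replicate 2 or 48 h replicate 3, 3 without 48 h replicate 1 and 8 without 6 h replicate 1, with 1 fall with the block or without 6 h replicate 1. Lysosomal and autophagy genes were called higher in 8 of 42 (19.0%, against 11.6% of all tested genes) and lower in 4 (9.52%, against 10.7%). With the block the counts were 13 and 8. Without 1 library the rises were 0 without 6 h replicate 2 or 48 h replicate 2, 2 without 48 h replicate 1 and 3 without 6 h replicate 3 and the falls 1 without 6 h replicate 2, 6 h replicate 3, 48 h replicate 1 or 48 h replicate 2, 2 without 48 h replicate 3 and 7 without 6 h replicate 1.

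Ribosomal protein transcripts were lower at 48 h in each of the 76 tested genes by fitted value (median log2FC -0.60). Only 9 of them (11.8%) were called, near the 10.7% called lower among all tested genes. With the replicate block 68 of the 76 were called lower. Their share of all counts was 6.32%, 9.15% and 11.02% in 6 h replicates 1, 2 and 3, and 5.47%, 6.78% and 6.79% in the 48 h replicates, so that the ranges overlap. RPLP0, of the ribosomal stalk, had 2353, 3149 and 3590.4 CPM at 6 h and 1827, 2229.9 and 2315 CPM at 48 h (adjusted p 0.0718, 0.00378 with the block and 0.000506 without 6 h replicate 1). RPS26 had 419.8, 675 and 805 and 299.8, 364 and 371 CPM (-0.86 ± 0.22, adjusted p 0.0238, and 0.0543 to 0.0878 without any 1 library but 6 h replicate 1). In both, replicate 1 is the lowest library of its time. Without 6 h replicate 1 the calls were 75, and without any 1 of the other 5 libraries there were none. Genes of ribosomal proteins have many pseudogenes, among which the authors' counting could split reads. The list of nuclear-encoded oxidative phosphorylation genes behaved alike, with 7 of 50 called lower (14%), none higher and a median of -0.44. It had 25 calls with the block, 44 without 6 h replicate 1, 1 without 6 h replicate 3, 2 without 48 h replicate 3, and none without any of the other 3 libraries. ATP5MC1, a subunit of ATP synthase, had 98.8, 133 and 164 and 75.7, 86.8 and 76.96 CPM (adjusted p 0.0200), a call lost without 6 h replicate 2 or any 1 of the 48 h libraries (adjusted p 0.0594 to 0.0772).

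**Figure D3:**
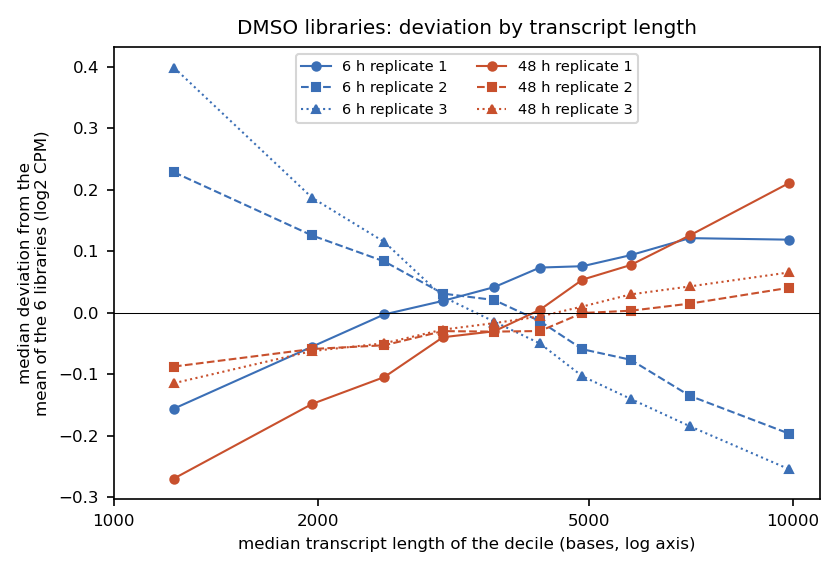
Median deviation of log2 CPM from the mean of the 6 DMSO libraries, in 10 groups of genes ordered by transcript length (log axis), 1 line per library. 6 h replicates 2 and 3 slope down from short to long transcripts and 6 h replicate 1 slopes up; in the shortest group they stand at 0.23, 0.40 and -0.16.

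Transcripts of ribosomal proteins and of the respiratory chain are short, and the libraries differed by transcript length. Over genes, which are not independent replicates, the deviation of a library from the mean of its own time group correlated with length. Spearman's rho was 0.599, -0.444 and -0.565 in the 6 h replicates and 0.412, -0.371 and -0.169 in the 48 h replicates. Unlike the figure, which takes the mean of the 6, these values leave out the shift between the times. The log2FC itself had a rho of 0.294 with length (14244 genes). With the length trend of each library removed, the ribosomal protein median was -0.39 with 11 calls, and that of oxidative phosphorylation -0.15 with 7, while the S phase median was -0.91 with 37. What set the length trend was not tested. Ribosome biogenesis genes had 8 of 38 called lower (21.1%, against 10.7% of all tested genes) and none higher. With the block 14 were lower and 5 higher. NPM1, a nucleolar chaperone, fell from 2027, 2189.5 and 2293 to 1317, 1352 and 1490.2 CPM (-0.63 ± 0.12, adjusted p 0.00756, and 0.0549 without 48 h replicate 2). Falls of this list numbered 0 without 48 h replicate 2, 1 without 6 h replicate 2, 48 h replicate 1 or 48 h replicate 3, 2 without 6 h replicate 3 and 14 without 6 h replicate 1, and rises 8 without 6 h replicate 1.

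Transcripts made in mitochondria were higher where they were called. Of 13 genes 8 were called higher and none lower (median log2FC 0.75), and their share of counts was 1.86%, 1.54% and 1.66% at 6 h and 3.19%, 2.55% and 2.06% at 48 h. MT-ND5, a subunit of complex I, had 1254, 961 and 886 and 2949, 2139 and 1637 CPM (1.13 ± 0.23, adjusted p 0.0102). MT-ND6, read from the opposite strand of the mitochondrial genome, had 337, 243 and 239 and 833, 607 and 439 CPM (1.21 ± 0.24, adjusted p 0.00903, and 0.102 with the length trend removed). MT-CO1 had 6299, 6017 and 6681 and 9049.6, 7552 and 6626 CPM and was not called (adjusted p 0.173). At 48 h replicate 1 was the highest and replicate 3 the lowest library in these genes. The count was 2 without 6 h replicate 2 or 48 h replicate 2 and 3 without 6 h replicate 3 or 48 h replicate 1, and 4 with the length trend removed.

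Epithelial and lung genes changed unevenly. The shares called over all tested genes were 11.6% higher and 10.7% lower. Junction and polarity genes were called higher in 13 of 40 and lower in none (median log2FC 0.18). CLDN1, a tight junction claudin, rose from 75.1, 62.5 and 62.2 to 107, 98.4 and 107 CPM (0.66 ± 0.11, adjusted p 0.00481), and ESRP2, an epithelial splicing regulator, from 52.02, 48.1 and 48.4 to 82.3, 73.8 and 72.8 CPM (0.64 ± 0.10, adjusted p 0.00357). CDH1, E-cadherin, had 230.3, 159 and 156 and 336, 266 and 251 CPM (0.66 ± 0.18, adjusted p 0.0311), a call lost without any 1 library but 6 h replicate 1 (adjusted p 0.0606 to 0.122). The junction count was 2 without 48 h replicate 2, 3 without 6 h replicate 2, 5 without 48 h replicate 1 and 23 without 6 h replicate 1, with 2 falls without 6 h replicate 1 and 1 with the block. Of 15 lung epithelial and secretory genes 6 were called higher and none lower. MUC1, a membrane mucin, rose from 53.8, 43.5 and 43.2 to 179.9, 151 and 119 CPM (1.69 ± 0.17, adjusted p 0.000662), and SLC34A2, a phosphate transporter of alveolar cells, from 8.54, 7.12 and 6.90 to 22.96, 18.7 and 17.9 CPM (1.41 ± 0.15, adjusted p 0.000811). The lung lineage factor NKX2-1 was at 0.671 CPM or less, SFTPB at 0.126 CPM or less and SCGB1A1 at 0 in these 6 libraries, and none of them was tested. The lung count was 2 without 48 h replicate 1 or 48 h replicate 2 and 3 without 6 h replicate 2, with 2 falls without 6 h replicate 1.

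Keratins were called at 14.3% each way, near the 11.6% higher and 10.7% lower of all tested genes. Squamous genes were called more often lower than higher. KRT81, a hair-type keratin, fell from 2254, 2553 and 2692 to 989, 1149.8 and 1097 CPM (-1.20 ± 0.13, adjusted p 0.000816); KRT81, KRT83 and KRT86 are near copies among which reads can be split. KRT80, an epithelial keratin, had 430.2, 382 and 355 and 584, 561 and 542 CPM (0.55 ± 0.11, adjusted p 0.0114, and 0.0527 to 0.0679 without 6 h replicate 2, 48 h replicate 1 or 48 h replicate 2). KRT8, the main simple-epithelium keratin with KRT18, had 5148, 4264 and 4282 and 5314, 5123 and 5004 CPM and was not called (adjusted p 0.329). Over the 14 tested keratins 2 were called higher and 2 lower (4 and 3 with the block), with rises of 0 without 6 h replicate 2, 48 h replicate 1 or 48 h replicate 2 and 4 without 48 h replicate 3 and falls of 1 without 6 h replicate 2, 6 h replicate 3, 48 h replicate 1 or 48 h replicate 3. Of 16 tested genes of squamous differentiation 7 were called lower and 2 higher. SPRR1B, a cornified envelope precursor like SPRR3, fell from 7.63, 7.70 and 7.19 to 1.23, 1.28 and 0.698 CPM (-2.78 ± 0.22, adjusted p 0.000295), while sciellin (SCEL), of the same envelope, rose from 128, 134 and 117 to 176, 198 and 224 CPM (0.67 ± 0.11, adjusted p 0.00538). IVL, the envelope protein involucrin, was not called (adjusted p 0.719, and 0.0326 without 6 h replicate 1). SPRR genes are close copies of each other as well. Squamous falls numbered 4 without 6 h replicate 2, 48 h replicate 1, 48 h replicate 2 or 48 h replicate 3, and rises 4 without 6 h replicate 1 and 1 without any 1 of the other 5 libraries.

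Matrix genes and their proteases split by gene. The shares called over all tested genes were 11.6% higher and 10.7% lower. Of 37 collagens and other matrix genes 14 were called higher (37.8%) and 3 lower (8.11%), with a median log2FC of 0.50. Basement membrane genes were among the rises, namely COL4A5 from 8.21, 8.58 and 10.03 to 18.7, 23.1 and 23.4 CPM (1.30 ± 0.14, adjusted p 0.000811) and the laminin chain LAMA5 from 198, 173 and 163 to 418, 469 and 333 CPM (1.21 ± 0.15, adjusted p 0.00127). MATN2, matrilin 2, rose by 0.97 ± 0.13 (adjusted p 0.00196). TGFBI, a matrix protein induced by TGF-beta, fell from 143, 136 and 135 to 70.9, 57.1 and 51.7 CPM (-1.19 ± 0.13, adjusted p 0.000917). FN1, fibronectin, was not called (adjusted p 0.586), nor was COL4A1 (adjusted p 0.404, 0.0443 with the block and 0.0434 without 6 h replicate 1). The count of rises was 8 without 6 h replicate 2 or 48 h replicate 2 and 9 without 48 h replicate 1, and that of falls 5 without 6 h replicate 1. Of 24 proteases and inhibitors 7 were called higher (29.2%) and 6 lower (25%). Next to MMP9, SERPINA1, which inhibits neutrophil elastase, fell from 52.6, 52.8 and 63.4 to 21.7, 21.04 and 22.7 CPM (-1.35 ± 0.11, adjusted p 0.000306), and TIMP1, an inhibitor of metalloproteases, from 39.1, 37.3 and 41.2 to 23.6, 21.6 and 20.6 CPM (-0.82 ± 0.10, adjusted p 0.00145). PLAUR, the urokinase receptor, fell from 50.02, 55.1 and 49.7 to 32.4, 33.7 and 34.7 CPM (-0.60 ± 0.10, adjusted p 0.00401). Urokinase itself (PLAU) had 208, 218 and 207 and 258, 276 and 282 CPM (adjusted p 0.0204, 0.0556 to 0.101 without any 1 library but 6 h replicate 1, and 0.199 with all 18 libraries in the fit). Protease rises were 2 without 6 h replicate 2, 6 h replicate 3 or 48 h replicate 1 and 3 without 48 h replicate 2, and falls 6 without any of the 6 libraries.

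Adhesion and signalling genes were mostly higher where called. Over all tested genes 11.6% were called higher and 10.7% lower. Integrins and adhesion molecules had 9 of 25 called higher (36%) and 1 lower (4%). BCAM, a laminin receptor, rose from 11.1, 12.8 and 10.5 to 26.1, 29.3 and 22.99 CPM (1.21 ± 0.13, adjusted p 0.000960), ITGB4, the integrin of hemidesmosomes, from 190.3, 129 and 106 to 410.2, 335 and 254 CPM (1.25 ± 0.24, adjusted p 0.00853) and L1CAM from 47.6, 34.2 and 32.7 to 89.2, 81.96 and 68.5 CPM (1.08 ± 0.17, adjusted p 0.00358). Integrin beta 1 (ITGB1) was not called (adjusted p 0.414). TGF-beta and BMP genes had 10 of 29 called higher (34.5%, and 19 genes with the block) and 1 lower (3.45%). The ligand BMP4 rose from 96.2, 107 and 111 to 163, 170.3 and 175 CPM (0.71 ± 0.10, adjusted p 0.00196), and the feedback inhibitors SMAD6 and PMEPA1 by 0.83 ± 0.10 and 0.73 ± 0.11 (adjusted p 0.00136 and 0.00261). Wnt and Notch genes had 6 of 26 called higher (23.1%, and 12 genes with the block) and 2 lower (7.69%). The Notch target HES1 rose from 26.7, 26.2 and 31.02 to 55.8, 67.8 and 61.7 CPM (1.16 ± 0.12, adjusted p 0.000685), but the Notch target NRARP fell from 8.17, 9.88 and 9.13 to 5.55, 5.04 and 5.25 CPM (-0.76 ± 0.13, adjusted p 0.00542). WNT10A, a Wnt ligand, rose by 0.93 ± 0.11 (adjusted p 0.00102), and the Wnt targets AXIN2 and LGR5 were under 1 CPM and not tested. Cyclin D1 (CCND1) rose from 165, 115 and 112 to 289, 246 and 239 CPM (1.00 ± 0.16, adjusted p 0.00476). Without 1 library, rises were 4 without 6 h replicate 2, 48 h replicate 1 or 48 h replicate 2 for integrins, 4 without 48 h replicate 2, 5 without 6 h replicate 2, 6 without 48 h replicate 1 and 16 without 6 h replicate 1 for TGF-beta and BMP, and 3 without 48 h replicate 1 or 48 h replicate 2 and 11 without 6 h replicate 1 for Wnt and Notch. Falls were 0 without 6 h replicate 2 or 48 h replicate 2 for integrins (2 with the block), 0 without 6 h replicate 3, 48 h replicate 1 or 48 h replicate 2 for TGF-beta and BMP, and 1 without 6 h replicate 2, 6 h replicate 3 or 48 h replicate 3 for Wnt and Notch.

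Interferon and inflammatory genes showed no common direction. Of 42 interferon-stimulated genes 6 were called higher and 6 lower, 14.3% each way against the same 11.6% and 10.7% (7 and 10 with the block). SAMD9L, an antiviral protein, rose from 6.93, 7.08 and 6.62 to 11.9, 11.97 and 13.00 CPM (0.85 ± 0.11, adjusted p 0.00187) and HERC5, the ligase for ISG15, fell from 31.03, 23.7 and 21.9 to 14.3, 14.3 and 15.02 CPM (-0.80 ± 0.15, adjusted p 0.00698). Antigen presentation had 1 of 24 called higher, HLA-DMA (adjusted p 0.00816, and 0.0505 without 48 h replicate 2), and none lower (4 and 2 with the block, 5 and 3 without 6 h replicate 1). B2M, the light chain of class I molecules, was not called (adjusted p 0.506, and 0.0284 without 6 h replicate 1). Of 22 NF-kB and cytokine genes none was called higher and 2 lower, IL32 and lymphotoxin beta (LTB, 2.03, 1.76 and 1.47 to 0.447, 0.447 and 0.331 CPM, -2.07 ± 0.29, adjusted p 0.00233); 4 were called higher with the block and 2 without 48 h replicate 3 and 4 without 6 h replicate 1. CXCL8, a neutrophil chemokine, had 14.1, 0.990 and 1.76 CPM at 48 h against 1.08, 2.09 and 0.804 CPM at 6 h, 1 library standing apart, and was not called (adjusted p 0.178). Interferon list rises were 3 without 6 h replicate 2, 48 h replicate 1 or 48 h replicate 2, and falls 3 without 6 h replicate 2, 48 h replicate 1 or 48 h replicate 2 and 10 without 6 h replicate 1.

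Most members of the stress lists were not called; the shares over all tested genes were 11.6% higher and 10.7% lower. Heat shock genes had 4 of 21 called lower and none higher (10 lower with the block), with 1 without 6 h replicate 2, 48 h replicate 1, 48 h replicate 2 or 48 h replicate 3, 2 without 6 h replicate 3 and 9 without 6 h replicate 1. CACYBP fell from 233, 259 and 290.4 to 151, 156 and 171 CPM (-0.69 ± 0.11, adjusted p 0.00420), and the inducible chaperone HSPA1A, a near copy of HSPA1B, was not called (adjusted p 0.808). NRF2 targets had 3 of 27 called higher and 5 lower (5 and 10 with the block). OSGIN1 fell from 4.94, 5.74 and 5.30 to 2.94, 2.87 and 2.31 CPM (-0.95 ± 0.16, adjusted p 0.00550), and NQO1, the usual reporter of this pathway, was not called (adjusted p 0.191, 0.0282 with the block and 0.00571 without 6 h replicate 1). ER chaperones had 2 of 26 called higher and 2 lower (8 and 2 with the block). Without 6 h replicate 1 they had 9 and 3, and without any 1 of the other 5 libraries 0 and 0. Metal genes had 2 of 13 called higher and 1 lower, among them the iron transporter SLC11A2 (0.63 ± 0.09, adjusted p 0.00321) and, lower, MT1F (-0.95 ± 0.18, adjusted p 0.00793), one of a family of near-identical metallothioneins. NRF2 rises were 1 without 6 h replicate 2, 6 h replicate 3, 48 h replicate 1, 48 h replicate 2 or 48 h replicate 3 and 5 without 6 h replicate 1, and falls 1 without 6 h replicate 2, 48 h replicate 1 or 48 h replicate 2, 3 without 48 h replicate 3 and 11 without 6 h replicate 1. Metal gene rises were 1 without 6 h replicate 2, 6 h replicate 3, 48 h replicate 1, 48 h replicate 2 or 48 h replicate 3, and falls 4 without 6 h replicate 1 (3 with the block).

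Of the 25 tested SWI/SNF subunits, the complexes that PRT3789 targets through SMARCA2, 2 were called higher and 3 lower, near the shares over all tested genes (6 and 4 with the block). DPF1, a subunit best known from neurons, fell from 6.93, 8.21 and 6.38 to 3.99, 4.05 and 3.12 CPM (-0.93 ± 0.17, adjusted p 0.00658), and ACTL6A, an actin-like subunit of dividing cells, from 112, 131 and 143 to 76.2, 79.1 and 90.3 CPM (-0.64 ± 0.12, adjusted p 0.00796). SMARCD3 had 1.16, 1.26 and 1.23 and 2.46, 2.14 and 2.31 CPM (0.94 ± 0.20, adjusted p 0.0140, and 0.0522 to 0.0601 without 6 h replicate 2, 48 h replicate 1 or 48 h replicate 2). ARID1A, a subunit of the BAF form of the complex, was not called (adjusted p 0.143, 0.00160 with the block and 0.00121 without 6 h replicate 1). Rises of this list were 0 without 6 h replicate 2, 48 h replicate 1 or 48 h replicate 2 and 9 without 6 h replicate 1.

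**Figure D4:**
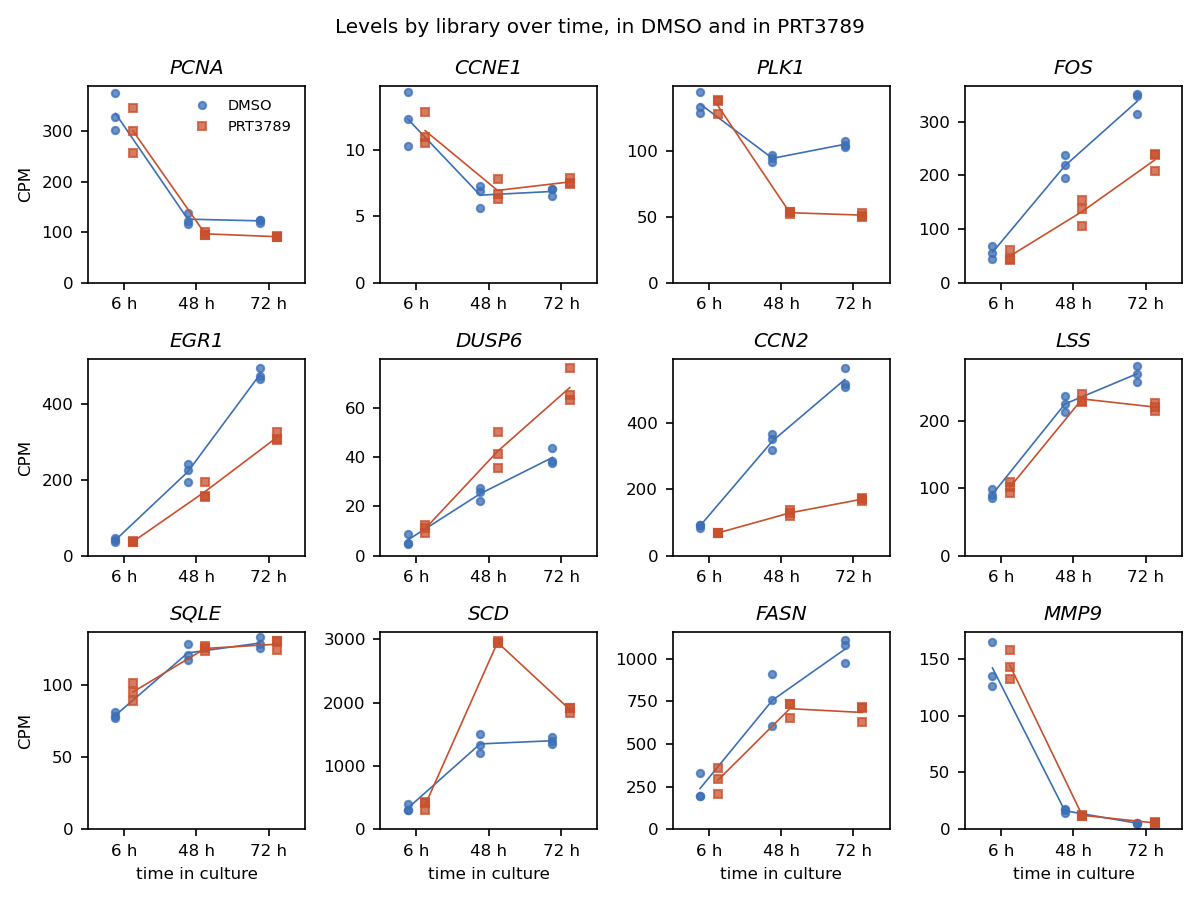
CPM of 12 genes in each library at 6, 48 and 72 h, in DMSO and in 50 nM PRT3789, with a line through the means; the 3 times are drawn at equal steps and each panel starts at 0. In DMSO, PCNA stays near its 48 h level at 72 h while EGR1, at 196 to 243 CPM at 48 h, is at 468 to 496 CPM at 72 h.

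The DMSO libraries of 72 h entered only alternative fits, and no test of 72 h against 48 h was made; their levels are given as a description. PCNA, at 125, 124 and 119 CPM, lay within its 48 h range, and CDC6, at 40.9, 44.9 and 42.9 CPM, overlapped it. MCM2 at 116, 113 and 117 CPM, E2F1 at 40.7, 39.8 and 42.5 CPM and FEN1 at 106, 104 and 103 CPM lay above all 48 h libraries and below all 6 h libraries. Immediate early genes stood higher still, with EGR1 at 468, 496 and 475 CPM, FOS at 348, 351 and 314 CPM and MYC at 98.7, 102 and 95.9 CPM, each above all 3 libraries of 48 h. MKI67 had 162, 197 and 239 CPM, above all libraries of 48 h. Sterol and fatty acid genes were close to or above 48 h, with LSS at 269.6, 258 and 281 CPM, SCD at 1351, 1387 and 1451 CPM and FASN at 1082, 977 and 1109 CPM. MMP9 lay below its 48 h range, at 5.39, 5.27 and 4.85 CPM, and SPRR3 likewise, at 4.82, 3.999 and 3.72 CPM, while TAGLN, at 104, 88.6 and 91.1 CPM, overlapped it. RPS26 was at 260.4, 255 and 229 CPM and MT-ND5 at 2057, 1954 and 2116 CPM.

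Cells in PRT3789 were sampled at the same times, in libraries that share none with the DMSO comparison. There 4284 of 15407 tested genes (27.8%) were called higher at 48 h than at 6 h and 4352 (28.2%) lower. Of the 1759 genes that rose in DMSO, 1720 were tested in PRT3789; 1215 were called higher there and 159 lower. Of the 1625 that fell in DMSO, 1623 were tested; 1442 were called lower and 13 higher. The S phase genes were called lower in 39 of 39 cases in PRT3789 (median log2FC -1.36) and G2/M genes in 44 of 44 (median -1.46), and the difference of these medians from those in DMSO was not tested. Single genes were tested for it. A test of the difference between the time changes called 2265 of 15940 genes (14.2%), and 846 of the 3384 called in DMSO.

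**Figure D5:**
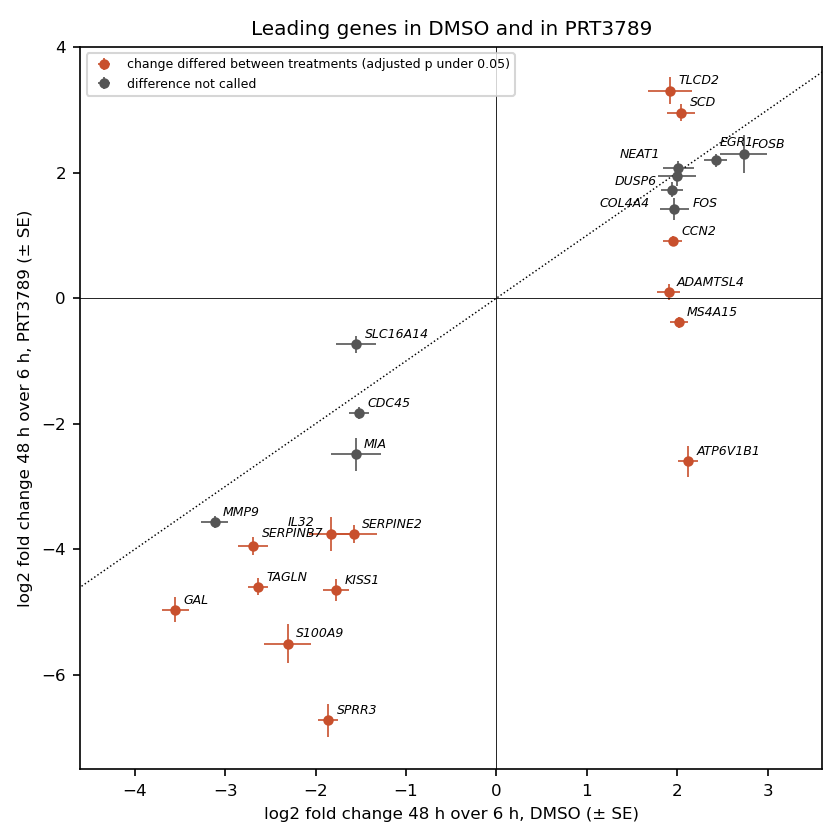
Log2 fold change of 48 h over 6 h in PRT3789 against that in DMSO for the 24 leading genes, with standard errors; the dotted line marks equal changes. The genes in the lower right, ATP6V1B1 and MS4A15, were called higher in DMSO and lower in PRT3789, and 10 genes in dark grey, FOS and MMP9 among them, had no called difference.

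Among the 24 leading genes 21 were called in the same direction in PRT3789, and 14 had a called difference in size. They were picked on the DMSO libraries, which also enter this test. ATP6V1B1 reversed, from 5.66, 5.73 and 4.18 CPM at 6 h to 1.07, 0.953 and 0.564 CPM at 48 h in PRT3789 (-2.60 ± 0.25, adjusted p 7.38e-05; difference from DMSO -4.71 ± 0.24, adjusted p 1.75e-07). MS4A15, which rose in DMSO, went from 20.3, 21.8 and 22.2 to 16.3, 15.3 and 17.6 CPM in PRT3789 (-0.39 ± 0.09, adjusted p 0.00659; difference -2.39 ± 0.12, adjusted p 1.57e-07). ADAMTSL4 had 6.21, 8.06 and 6.48 and 7.58, 7.29 and 7.29 CPM there and was not called (adjusted p 0.539; difference -1.80 ± 0.17, adjusted p 2.46e-05). CCN2 rose in both, but to 119, 129 and 139 CPM in PRT3789 (difference -1.02 ± 0.11, adjusted p 9.00e-05). SCD rose further in PRT3789, from 417, 421 and 303 to 2944, 2934 and 2974 CPM (difference 0.92 ± 0.21, adjusted p 0.00948). SPRR3 fell from 24.6, 23.2 and 22.7 to 0.427, 0.0829 and 0.133 CPM (difference -4.85 ± 0.31, adjusted p 8.51e-07) and TAGLN from 501, 465 and 576 to 24.2, 19.1 and 20.4 CPM (difference -1.95 ± 0.16, adjusted p 6.01e-06), both deeper than in DMSO. For EGR1, FOS, FOSB, DUSP6, NEAT1, COL4A4, MMP9, MIA, SLC16A14 and CDC45 the test called no difference, which does not show equal changes; that of EGR1 was -0.22 ± 0.16 (adjusted p 0.450) and that of MMP9 -0.44 ± 0.17 (adjusted p 0.108). Among the sterol genes LSS differed by -0.11 ± 0.12 (adjusted p 0.615), and among the early genes JUN by 0.09 ± 0.13 (adjusted p 0.735).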

How the data were processed

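The deposited table holds the authors' expected counts for 43236 gene symbols in 18 libraries, already whole numbers. Per the labels and the series' design text, RNA from frozen pellets was enriched for poly(A), made into stranded libraries, read as 150 bp pairs, processed with nf-core/rnaseq 3.17.0 (Trim Galore, STAR on GRCh38 patch 14 with annotation release 110) and counted by RSEM. Tool versions beyond these are not given in the sources used here. The counts carry no molecular identifiers.

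The members, gene lists and tests were chosen with earlier results of these data known. The 6 DMSO libraries of 6 and 48 h were fitted alone, because the 6 h libraries varied more (median SD of log2 CPM 0.167 at 6 h and 0.117 at 48 h over 10927 genes). edgeR 4.0.16 (R 4.3.3) used filterByExpr, TMM factors and robust quasi-likelihood F tests, two-sided, with Benjamini-Hochberg adjustment over 15200 genes; the other genes held at most 0.0879% of a library's counts. The standard error is the absolute log2FC over the square root of F. Printed CPM use TMM factors of all 18 libraries. PRT3789 48 against 6 h was fitted on its own 6 libraries and the difference on 12.

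The model had no replicate term. An alternative took the replicate numbers as pairs, in a block: deviations from the group means correlated at 0.665, 0.440 and 0.362 over genes between same-numbered 6 h and 48 h libraries, though the labels do not say what a number marks and 6 h replicate 3 correlated with 48 h replicate 2 as highly (0.363). Named genes are the 12 largest called rises and falls (mean of at least 5 CPM, groups apart, official symbol), and of each of 41 lists the 4 called members with the smallest p (mean of at least 1 CPM) and the first 3 members; SREBF2, MCM3 and BUB1B were added for their promoters. Of 1245 list symbols, 1226 were in the table. Transcript lengths came from GENCODE 44 and promoters from RefSeq. Alternatives used limma 3.58.1 and DESeq2 1.42.0. The fit was run on simulated counts drawn independently for each library, with no length trend and no link between same-numbered libraries. Such counts cannot show how the calls depend on these features, and the outcome is not given here. Values of some genes are not reported here.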

Additional observations from a re-analysis of the deposited data

Results flagged for a closer look

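For 14 of the 24 leading genes the change from 6 to 48 h differed between PRT3789 and DMSO by edgeR's test of the difference (values are PRT3789 minus DMSO on the log2 scale, SE, with adjusted p). The 24 were picked on DMSO libraries that also enter this test. Over all genes it called 2265 of 15940 (14.2%), and 846 of the 3384 called in DMSO. Among genes that rose in DMSO, the difference was -4.71 ± 0.24 for ATP6V1B1 (1.75e-07), -2.39 ± 0.12 for MS4A15 (1.57e-07), -1.80 ± 0.17 for ADAMTSL4 (2.46e-05), -1.02 ± 0.11 for CCN2 (9.00e-05), 0.92 ± 0.21 for SCD (0.00948) and 1.40 ± 0.36 for TLCD2 (0.0202). SCD and TLCD2 rose by more in PRT3789 and CCN2 by less. ADAMTSL4 was not called there, and ATP6V1B1 and MS4A15 were called lower.

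All 8 genes that fell in DMSO and differed fell further in PRT3789. The difference was -4.85 ± 0.31 for SPRR3 (8.51e-07), -3.18 ± 0.45 for S100A9 (0.000482), -2.87 ± 0.24 for KISS1 (8.70e-06) and -2.17 ± 0.34 for SERPINE2 (0.000998). It was -1.95 ± 0.16 for TAGLN (6.01e-06), -1.92 ± 0.41 for IL32 (0.00775), -1.40 ± 0.27 for GAL (0.00373) and -1.24 ± 0.22 for SERPINB7 (0.00212). At 48 h in PRT3789 SPRR3 was at 0.427, 0.0829 and 0.133 CPM and GAL at 0.782, 0.994 and 0.464 CPM, against 7.75, 7.02 and 8.26 and 1.71, 1.88 and 2.13 CPM in DMSO.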

How the results depend on the processing

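The number of genes called higher at 48 h was 1759, and 1625 were lower. It moved beyond 1.5 times under limma-voom with quality weights (4068 higher, 3897 lower), with all 18 libraries in the fit (2781, 3278), with the replicate block (3072, 3052), with the block and the length trend removed together (3513, 2977), at an adjusted p of 0.01 (594, 527) and at 2-fold (391, 203). It did so for falls alone with total counts (1028) and with the 9 DMSO libraries (2502). With 1 library left out it ran from 616 to 3246 higher and from 544 to 3256 lower, lowest without 48 h replicate 2 and highest without 6 h replicate 1; the cause was not tested. With DESeq2 size factors, no filter, a 1 CPM filter, DESeq2, limma-voom or the length trend removed it stayed within 1.5 times. Of 182 named genes called, 120 were called in each of the 18 alternative fits and none changed sign while called. Many of the 182 were picked for a small p or a large change in libraries that these fits reuse. The replicate block moved the PRT3789 count from 8636 to 7701 and the count of differences from 2265 to 2470, and all 18 libraries to 9244 and 3132; lists whose counts it moved by over 1.5 times, and genes whose calls it changed, are given beside their values. Among the genes discussed it changed no other call, and it lost none of the 182.

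With 3 libraries per time, unadjusted p under 0.05 was reached by 5740 genes. Genes under about 1 CPM rest on few counts, and a level of 0 in a library of 23402300 counts does not show absence.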

Other observations

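Single libraries held transcripts more than 2-fold above both others of their group (on CPM + 0.5), among genes with a group mean of at least 3 CPM. There were 12 in 48 h replicate 1, 12 in 6 h replicate 2, 8 in 6 h replicate 3, 2 in 6 h replicate 1 and none in 48 h replicates 2 and 3. In 48 h replicate 1 they included SPP1, which encodes osteopontin, at 19.3 CPM (others at most 0.220), the chemokine CXCL6 at 18.9 (0.220), the metalloprotease MMP7 at 11.6 (0.192), fibrillin FBN1 at 9.21 (0.958) and the basal keratin KRT5 at 17.5 (7.76). In 6 h replicate 3 they included the plasma protein genes ALB at 50.6 (17.05), AFP at 22.7 (7.03), TF at 18.1 (6.97) and APOB at 10.2 (4.02). Those of 6 h replicate 2 were mostly ribosomal RNA, which made up 5.13% of its counts against 1.04% and 2.18% in the other 6 h libraries and 0.923% to 1.97% at 48 h. These genes were named after their values were seen, and their source was not tested.

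Some smaller lists lay outside the account above. Of 17 circadian clock genes 1 (5.88%) was called higher (3 with the block) and 2 (11.8%) lower, against 11.6% and 10.7% of tested genes. BHLHE40, a repressor that is also an early response gene, rose from 50.9, 47.9 and 45.3 to 106, 97.1 and 100.4 CPM (1.09 ± 0.10, adjusted p 0.000462), and PER1, DBP and NR1D1 were not called. Of 13 glucocorticoid and cAMP targets 6 were called higher and 1 lower. Beside DUSP1 they included SIK1, a kinase of the cAMP response, from 5.81, 3.35 and 4.02 to 8.87, 9.83 and 8.15 CPM (1.04 ± 0.20, adjusted p 0.00931, and 0.0522 without 48 h replicate 2). FKBP5, a glucocorticoid target, had 73.3, 63.8 and 55.8 and 47.1, 45.7 and 46.3 CPM (-0.46 ± 0.12, adjusted p 0.0258, 0.0777 to 0.0935 without 6 h replicate 2 or any 1 of the 48 h libraries, and 0.0806 with total counts). Of 7 targets of the aryl hydrocarbon receptor, CYP1A1 alone was called (2 higher and 3 lower with the block, 2 and 2 without 6 h replicate 1, and 2 lower without 6 h replicate 3), from 10.4, 9.21 and 9.32 to 4.14, 3.51 and 4.22 CPM (-1.27 ± 0.14, adjusted p 0.000917). Rises of clock genes were 4 without 6 h replicate 1, falls 0 without 6 h replicate 2, 48 h replicate 1 or 48 h replicate 2 and 1 without 6 h replicate 3 or 48 h replicate 3. Glucocorticoid and cAMP rises were 3 without 6 h replicate 2, 48 h replicate 1 or 48 h replicate 2, and falls 0 without 6 h replicate 2, 48 h replicate 1, 48 h replicate 2 or 48 h replicate 3 and 3 without 6 h replicate 1 (2 with the block).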
